A study of Mus musculus with 10 samples.

Results

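The genes described here are the enzymes that build cholesterol and the regulators and carriers controlled by SREBP2, the transcription factor that switches this pathway on. A list of 26 genes named the set, and each gene was represented by its Affymetrix probe set of highest mean over all 10 arrays. Of the 26, 25 were measured, among 18193 genes with a probe set that names a single gene, and all 25 were also among the 11032 genes above the filter on dim genes. Acat2, the cytosolic thiolase that makes acetoacetyl-CoA, was not analysed here. The list holds 4 measured genes of the mevalonate steps (Hmgcs1, Mvk, Pmvk, Mvd), 3 of isoprenoid assembly (Idi1, Fdps, Ggps1), 3 from farnesyl units to lanosterol (Fdft1, Sqle, Lss) and 9 from lanosterol to cholesterol (Cyp51, Tm7sf2, Lbr, Msmo1, Nsdhl, Hsd17b7, Ebp, Sc5d, Dhcr7). It also holds 4 genes of the SREBP2 control system (Srebf2, Scap, Insig1, Insig2) and 2 further SREBP2 targets (Stard4, Tmem97).

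All samples were liver RNA of mice on a 129/B6 background, hybridised 1 array per RNA sample. Gnmt knockout mice lack glycine N-methyltransferase, the liver enzyme that uses up S-adenosylmethionine. At 11 weeks of age there were 2 knockout arrays and 2 wild-type arrays, and each genotype had a female and a male array, every one a pool of RNA from 3 mice. The 6 aged arrays were all from knockout mice, so no aged wild-type liver stands beside them. They were dysplasia nodules with the liver beside them from a female of 21 months, and hepatocellular carcinoma (HCC) with the liver beside it from a male of 18 months and from a female of 14 months. A lesion and the adjacent tissue of the same sex and age were taken to be from the same mouse, since the labels give no mouse number. Where a p-value is given, it rests on the spread left between these few arrays after sex, genotype or mouse was fitted. The limma fit also draws the variance of each gene toward that of genes of similar signal. The 2 pools of a genotype differ in sex, and a pool holds no measure of the spread between single mice.

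Cells sense sterols in the membrane of the endoplasmic reticulum. When sterol is plentiful, INSIG proteins hold the escort protein SCAP there, and SREBP2 stays bound to it. When sterol falls, SCAP carries SREBP2 to the Golgi, where proteases release the active factor, and it then turns on nearly every enzyme between acetyl-CoA and cholesterol as well as INSIG1, which closes the loop. In liver this pathway supplies cholesterol for membranes, lipoproteins and bile acids, and its transcripts are known to vary with feeding and the time of day.

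Gnmt had signals of 245 and 190.0 in the knockout pools, against 59473 and 52139.9 in the wild-type pools, and lay between 11.7 and 329 on the aged arrays. The summed signal of 10 hepatocyte markers was 476918 to 797647, and that of 4 measured cholangiocyte markers 199 to 1023, over all 10 arrays. Some arrays stood apart. The wild-type female pool had a signal of 912 for the clock gene Arntl, where the other 3 young pools had 22.2 to 85.2, and 191 for Dbp, a gene that cycles in the opposite phase, where the others had 8414 to 11097. The male HCC and its adjacent liver had Dbp signals of 42.2 and 214. The part of this clock difference in the sterol values was not tested, and the differences between genotypes are also given without the wild-type female pool where leaving it out moved them by over 1.5 times. The summed signal of 6 endothelial markers was 3658 and 3792 in the knockout pools and 9628 and 7093 in the wild-type pools, and that of 13 measured cell-cycle genes 4408 and 8671 in the knockout pools, against 3119 and 3585 in the wild-type pools. Stab2, a scavenger receptor of sinusoidal endothelium, was the endothelial marker called lower (a difference of -1.55 ± 0.23, limma adjusted p = 0.0401), and 5 of the 6 were above the filter. The 6 macrophage markers summed to 9522 and 7519 in the knockout pools and 16135 and 9803 in the wild-type pools. The 3' to 5' signal ratio of Actb, a gauge of RNA integrity, was 3.38 and 3.18 in the knockout pools and 2.62 and 2.60 in the wild-type pools. The part of these markers and of the ratio in the sterol values was not tested. In bulk tissue, fewer cells of a type and less RNA per cell cannot be told apart.

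The first comparison asked how the sterol pathway differs in young liver that lacks Gnmt. Most sterol synthesis genes, from HMG-CoA synthase to the last reductase, had higher signals in the knockout pools. Hmgcs1, Lss and Cyp51 passed the test, 3 of 25 measured members, and no member was lower by the test. Over all 11032 genes 0.707% were called higher and 0.743% lower (limma, Benjamini-Hochberg adjusted p below 0.05), so that 48.8% of the calls were higher, against 70.7% of them after centring each array on its 75th percentile, which moved the median of all genes to 0.10. The 25 members had a median difference of 0.92 (knockout minus wild-type on the scale of log2(signal + 16.8), which understates the change of dim genes), with 23 above 0, where the median of all genes was -0.048, and relative to all genes they stood 0.97 higher on either scale and 0.86 higher after quantile normalization. Both knockout pools lay above both wild-type pools for 18 members and below both for 0, and 22.0% of all genes had both knockout pools above. Of the control genes, Srebf2, Scap and Insig2 lay between -0.15 and 0.18, and Insig1 had 0.73. The Insig2 value is the mean of -0.70 between females and 1.06 between males.

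The promoters of the 3 called genes are shown because SREBP2 is known to work at sterol regulatory elements together with NF-Y at CCAAT boxes and Sp1 at GC boxes. Each sequence runs 5′ to 3′ on the strand of the gene, from 250 bases before to 50 bases after the transcription start, and is the RefSeq sequence of build GRCm38.p6. Capitals mark matches, on either strand, to TCACNCCAC (SRE-like), CCAAT (NF-Y) and GGGCGG (Sp1). CACGTG (E-box) was not marked, and none of the 3 promoters held it.
Hmgcs1 promoter, chr13:119690101-119690400, plus strand: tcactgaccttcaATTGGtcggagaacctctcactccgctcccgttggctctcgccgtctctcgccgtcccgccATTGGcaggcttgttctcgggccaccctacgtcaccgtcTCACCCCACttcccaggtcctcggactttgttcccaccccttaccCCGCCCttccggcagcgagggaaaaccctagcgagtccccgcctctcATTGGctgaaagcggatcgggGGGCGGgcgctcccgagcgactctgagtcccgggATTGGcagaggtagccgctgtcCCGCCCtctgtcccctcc
Lss promoter, chr10:76531355-76531654, plus strand: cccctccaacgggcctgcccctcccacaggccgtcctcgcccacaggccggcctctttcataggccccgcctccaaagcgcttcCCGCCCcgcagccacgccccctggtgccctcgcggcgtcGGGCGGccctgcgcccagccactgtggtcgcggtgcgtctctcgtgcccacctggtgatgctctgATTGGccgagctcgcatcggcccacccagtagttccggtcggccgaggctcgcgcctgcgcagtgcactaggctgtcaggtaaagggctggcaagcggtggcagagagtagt
Cyp51 promoter, chr5:4104648-4104947, minus strand: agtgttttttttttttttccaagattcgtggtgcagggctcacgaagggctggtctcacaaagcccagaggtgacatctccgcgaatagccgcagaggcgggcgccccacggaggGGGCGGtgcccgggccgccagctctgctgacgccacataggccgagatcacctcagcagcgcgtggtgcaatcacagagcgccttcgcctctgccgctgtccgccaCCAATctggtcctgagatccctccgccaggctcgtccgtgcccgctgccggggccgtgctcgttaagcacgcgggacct
The Hmgcs1 promoter held 1 SRE-like match, whose first base lies at position -137, with 4 CCAAT and 3 GGGCGG matches around it. Those of Lss and Cyp51 each held 1 CCAAT match, with 2 and 1 GGGCGG matches, and no match to the SRE-like motif in this window.

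A RefSeq promoter was given for 22 of the 26 listed genes, some with several starts, and a gene was counted where any of its promoters held the motif. CCAAT was present for 20 of the 22, a share of 90.9%, against 41.1% of all 27025 genes with a promoter and 42.7% of the 8965 of them that passed the filter on dim genes. GGGCGG was also present for 20 of the 22 listed genes, against 38.2% of all genes and 67.7% of those past the filter. The E-box CACGTG was present for 5 (Hsd17b7, Sc5d, Dhcr7, Scap and Insig1), a share of 22.7% against 8.09% of all genes and 11.9% of those past the filter. TCACNCCAC was present for Hmgcs1 alone, a share of 4.55% against 1.44% in both sets. These are letter matches, and no binding was measured.

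The 4 mevalonate enzymes had higher signals in both knockout pools. Hmgcs1, the synthase that joins acetyl-CoA and acetoacetyl-CoA into HMG-CoA, had signals of 40576 and 21402 in the female and male knockout pools, against 10460.0 and 7343 in the female and male wild-type pools. Each knockout pool exceeded each wild-type pool, and Hmgcs1 rose by 1.75 ± 0.19 on the log2 scale (SE; adjusted p = 0.0156 by limma, with n = 2 pools of each genotype). Its 4 other probe sets, all above the filter, had mean differences of 1.44, 1.498, 1.27 and 0.80, and the last of these was -0.22 between the female pools and 1.81 between the male pools. Mvk, the kinase that first phosphorylates mevalonate, had 1143 and 687 in the female and male knockout pools, against 439 and 429 in the female and male wild-type pools. The groups did not overlap, and the difference of 1.002 ± 0.26 did not pass (adjusted p = 0.117). Pmvk, the next kinase, had 1939.8 (female) and 1235 (male) in the knockout pools and 844 (female) and 939 (male) in the wild-type pools, a difference of 0.79 (adjusted p = 0.184). Mvd, the decarboxylase that yields isopentenyl diphosphate, had 854 (female) and 439.5 (male) in the knockout pools and 391 (female) and 239.9 (male) in the wild-type pools, a difference of 0.96 (adjusted p = 0.112). In both of these genes too the genotypes did not overlap, although for Mvd the lower knockout pool, the male, was close to the female wild-type pool.

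Among the isoprenoid genes, Idi1 and Fdps differed by a larger amount and Ggps1 by a small one. Idi1, which isomerises isopentenyl diphosphate, had 9303 and 6705 in the female and male knockout pools, against 2443 and 3406 in the female and male wild-type pools. All knockout values were above all wild-type values, with a difference of 1.45 ± 0.27 that just missed the threshold (adjusted p = 0.0544). Fdps, which builds farnesyl diphosphate, had 10468 (female) and 8365 (male) in the knockout pools and 2296 (female) and 4983 (male) in the wild-type pools, without overlap, and differed by 1.46 ± 0.33 (adjusted p = 0.0878). The Fdps difference was 2.18 between the female pools and 0.75 between the male pools. Ggps1 makes geranylgeranyl diphosphate for protein prenylation, a branch that leaves the sterol route. Its signals were 303 (female) and 184 (male) in the knockout pools and 197 (female) and 207 (male) in the wild-type pools, so the male knockout pool was the lowest of the 4 and the genotypes overlapped (difference 0.21 ± 0.34, adjusted p = 0.777).

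The steps from farnesyl diphosphate to lanosterol held the 2 largest differences of the list, those of Sqle and Lss. Fdft1, the squalene synthase, had 10553 and 7055 in the female and male knockout pools, against 2118 and 3379 in the female and male wild-type pools. Sqle, the squalene monooxygenase and a rate-limiting enzyme of the pathway, had 4914 and 2867 in the female and male knockout pools, against 529.6 and 1317 in the female and male wild-type pools. Lss, the cyclase that folds the epoxide into lanosterol, had 3176 and 2074 in the female and male knockout pools, against 640.1 and 777 in the female and male wild-type pools. In all 3 genes the lower knockout pool was the male one and still exceeded both wild-type pools, of which the female one was lower. Lss rose by 1.84 ± 0.28 (adjusted p = 0.0399). Fdft1 differed by 1.68 ± 0.31 (adjusted p = 0.0536) and Sqle by 2.14 ± 0.44 (adjusted p = 0.0694), neither past the threshold. For Sqle the difference between the female pools, 3.17, was much larger than that between the male pools, 1.11. Of the other Lss probe sets, 1 gave a difference of 1.74 and the other 0.094.

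The 9 genes from lanosterol to cholesterol ran from differences of 1.41 down to 0.16. Cyp51, the lanosterol demethylase, had 4374 and 4343 in the female and male knockout pools, against 1394 and 1943 in the female and male wild-type pools, and rose by 1.40 ± 0.23 (adjusted p = 0.0424). The 2 knockout values were nearly equal and both wild-type values were far below them. Dhcr7, the reductase that makes cholesterol from its dehydro precursor, had 5683 (female) and 4855 (male) in the knockout pools and 1426 (female) and 2717 (male) in the wild-type pools, without overlap, a difference of 1.41 ± 0.30 (adjusted p = 0.0745). Nsdhl and Hsd17b7 act with Msmo1 to remove the methyl groups of the sterol ring. Nsdhl had 5817 (female) and 4727 (male) in the knockout pools and 2203 (female) and 3075 (male) in the wild-type pools, and Hsd17b7 had 3411 (female) and 3510.0 (male) in the knockout pools and 1741 (female) and 1901 (male) in the wild-type pools. Neither overlapped between genotypes, with differences of 1.01 (adjusted p = 0.106) and 0.92 (adjusted p = 0.0887). The 2 other Hsd17b7 probe sets above the filter gave smaller differences of 0.24 and 0.17.

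Msmo1, the methylsterol oxidase, had 7982 and 7524 in the female and male knockout pools, against 1731 and 7056 in the female and male wild-type pools. Here the wild-type female pool stood alone and the other 3 pools lay close together, so the difference of 1.14 ± 0.44 (adjusted p = 0.224) was 2.19 between the female pools and 0.093 between the male pools. Sc5d, the desaturase that acts just before the last step, had 21124 (female) and 12631 (male) in the knockout pools and 7976 (female) and 10916 (male) in the wild-type pools, a difference of 0.81 (adjusted p = 0.200) without overlap, made up of 1.40 between the female pools and 0.21 between the male pools. Ebp, the sterol isomerase, had 19049.6 (female) and 16183 (male) in the knockout pools and 12677 (female) and 13890.4 (male) in the wild-type pools, a difference of 0.40 (adjusted p = 0.300), again without overlap. The reductase step after Cyp51 can be carried out by 2 proteins. Tm7sf2 had 9870.3 (female) and 11351 (male) in the knockout pools and 8871 (female) and 6902 (male) in the wild-type pools, a difference of 0.44 (adjusted p = 0.321) without overlap. Lbr, which is also the lamin B receptor of the nuclear envelope, had 747 (female) and 960.3 (male) in the knockout pools and 692 (female) and 832 (male) in the wild-type pools, with overlap and a difference of 0.16 (adjusted p = 0.752).

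Among the control genes, Srebf2, Scap and Insig2 had smaller mean differences than most enzymes. Insig1 lay within the range of the enzymes, and this contrast was not tested. Srebf2, which encodes SREBP2 itself, had 577 and 532 in the female and male knockout pools, against 489 and 679 in the female and male wild-type pools; the wild-type pools were the lowest and the highest of the 4. Its difference was -0.055 ± 0.26 (adjusted p = 0.929), and it turned to 0.061 after quantile normalization and 0.097 after centring on the 75th percentile. Scap, the escort, had 5482 (female) and 4277 (male) in the knockout pools and 5957 (female) and 4884 (male) in the wild-type pools, a difference of -0.15 (adjusted p = 0.716), which was 0.0016 after that centring. Insig1, an SREBP target that retains SCAP, had 5159 and 3402 in the female and male knockout pools, against 2033 and 3101 in the female and male wild-type pools. Its genotypes did not overlap, but the male knockout pool was only slightly above the male wild-type pool, and the difference of 0.73 ± 0.31 did not pass (adjusted p = 0.251). Insig2, the second retention protein, had 9826 and 10258 in the female and male knockout pools, against 16010.4 and 4913 in the female and male wild-type pools. The wild-type pools bracketed the knockout pools, so the difference was -0.70 between females and 1.06 between males. All 3 Insig2 probe sets showed these opposite signs. Of the carriers, Stard4, a soluble sterol transfer protein, had 4052 (female) and 2364 (male) in the knockout pools and 1669 (female) and 3564 (male) in the wild-type pools, and Tmem97, a membrane protein that binds the cholesterol exporter of lysosomes, had 2660.1 (female) and 2649 (male) in the knockout pools and 1575 (female) and 2895 (male) in the wild-type pools. Both overlapped between genotypes, with differences of 0.34 and 0.31 (adjusted p = 0.692 and 0.570), and in both the difference was above 0 between females and below 0 between males.

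The difference was larger between the female pools than between the male pools. Between females the members had a median of 1.34, with 23 of 25 above 0 and 16 at least 2-fold higher, where 4.78% of all genes were at least 2-fold higher. Between males the median was 0.66, with 20 above 0 and 6 at least 2-fold higher (Hmgcs1, Lss, Cyp51, Fdft1, Sqle and Insig2), where the share of all genes was 6.08%. The wild-type female pool, which stood apart in clock genes, was the lowest of all 10 arrays for 13 members. Without it, both knockout pools lay above the male wild-type pool for 19 members, and 33.7% of all genes did so. The difference between the sexes in the size of the shift rests on 1 pool per genotype and sex and was not tested.

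**Figure D1:**
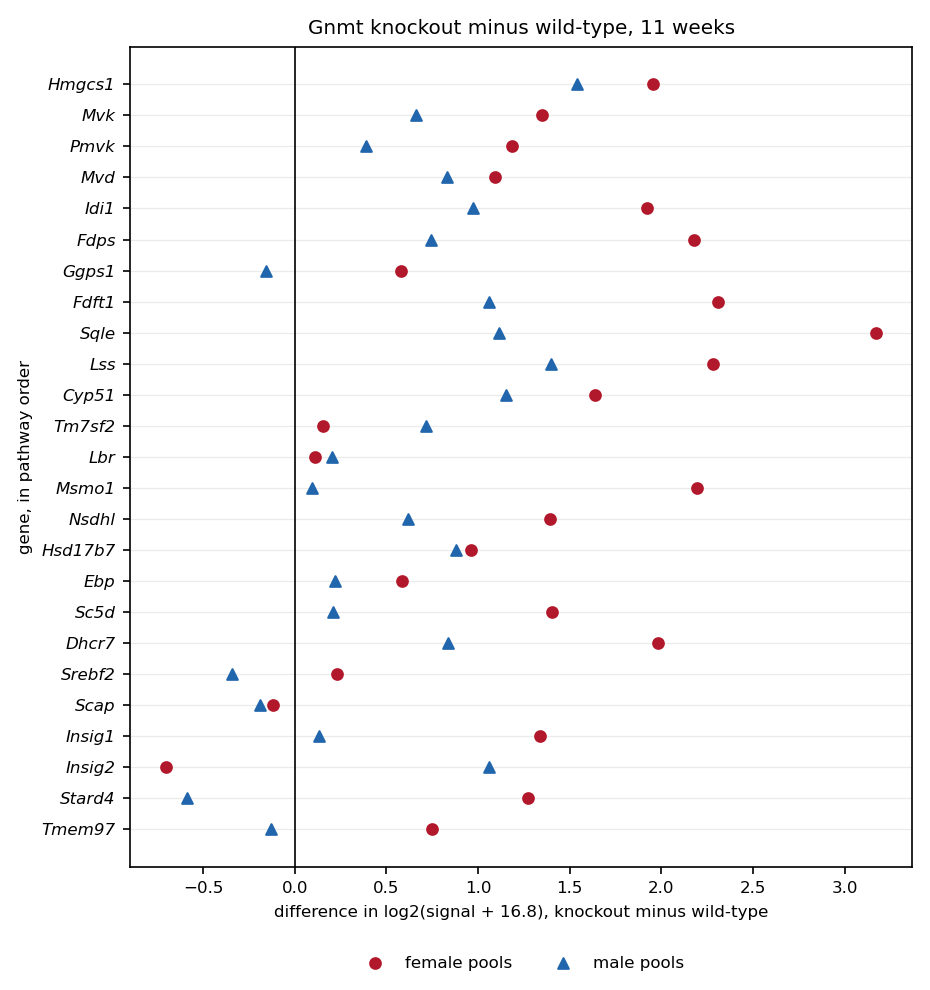
Difference in log2(signal + 16.8) between Gnmt knockout and wild-type liver at 11 weeks, for 25 sterol pathway genes in pathway order, with circles for the female pools and triangles for the male pools (1 pool of 3 mice each). For 20 genes the male pools lie above 0 and for 23 the female pools do. The genes at the bottom, which are control and transport genes, scatter around 0. Among them Insig1 lies above 0 in both sexes.

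The 3 calls depended on the model of the spread. With 1 residual degree of freedom, no member was called when the variance had no intensity trend, when all arrays entered the model, when any 1 pool was left out of that model, when sex was left out or when the probe sets of a gene were averaged, and 12 were called after quantile normalization. Over 14 alternatives to this fit, the differences of Hmgcs1, Lss and Cyp51 kept their direction in all 14 and were 1.25 to 2.24, 1.22 to 2.30 and 1.10 to 1.69. With pools left out in turn, some members moved by over 1.5 times. Leaving out the female wild-type array brought closer to 0 the differences of Pmvk (0.48), Fdps (0.63), Msmo1 (0.43), Nsdhl (0.65), Ebp (0.18), Sc5d (0.18), Scap (-0.089) and Insig1 (0.42). Leaving out the male wild-type array raised the values for Fdps (2.30), Msmo1 (1.86), Ebp (0.62) and Sc5d (1.44). Without the knockout female pool those that moved were Mvk (0.59), Mvd (0.61), Sqle (1.29), Tm7sf2 (0.84), Msmo1 (0.46), Scap (-0.27) and Insig1 (0.25), and without the knockout male pool Tm7sf2 (0.027), Msmo1 (1.83), Scap (-0.042) and Insig1 (1.22). With the mean over all probe sets of a gene they were Mvd (1.60), Fdps (0.41), Fdft1 (0.86), Lss (1.22), Msmo1 (0.75) and Hsd17b7 (-0.008). Ggps1, Lbr, Srebf2, Insig2, Stard4 and Tmem97 changed sign with 1 pool or another left out.

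The same 4 pools allowed females to be compared with males. No member was called, and 0.272% of all genes were. The 2 members with an unadjusted p below 0.05 (limma) were Hmgcs1 and Mvd, and 1016 of all 11032 genes had one. Hmgcs1 had 40576 and 10460.0 in the knockout and wild-type female pools, against 21402 and 7343 in the male pools, a difference of 0.72 ± 0.19 (adjusted p = 0.355). Mvd differed by 0.80 ± 0.25 (adjusted p = 0.427), and both genes were higher in females within each genotype. With all arrays in 1 model, which takes in the aged mice, the differences were 0.18 and 0.41. For most others the sign depended on genotype. In knockout liver the female pool was above the male pool for 21 of 25 members, with a median of 0.36, whereas in wild-type liver the female pool was below the male pool for 19, with a median of -0.45. Msmo1 showed the widest gap, with females minus males at 0.085 in knockout and -2.02 in wild-type liver.

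Across all 10 arrays, few arrays held most of the highest and lowest signals. The liver adjacent to the nodules had the highest signal of the 10 arrays for 18 of 25 members, and the male HCC had it for 5 (Sqle, Lbr, Dhcr7, Insig1 and Insig2). The lowest signal was in the wild-type female pool for 13 members, in the nodules for 5 (Pmvk, Tm7sf2, Hsd17b7, Scap and Stard4), in the wild-type male pool for 4 (Hmgcs1, Mvk, Mvd and Insig2) and in the female HCC for 2 (Ebp and Srebf2). For Ggps1 the liver adjacent to the nodules was the lowest array and the knockout female pool the highest, and Scap was highest in the wild-type female pool. This ranking sets aged arrays beside young ones. The ratio of the hybridisation controls BioC to BioB was 1.45 to 1.84 on the aged arrays and 3.90 to 5.09 in the young pools. The part of that difference in the ranking was not tested.

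**Figure D2:**
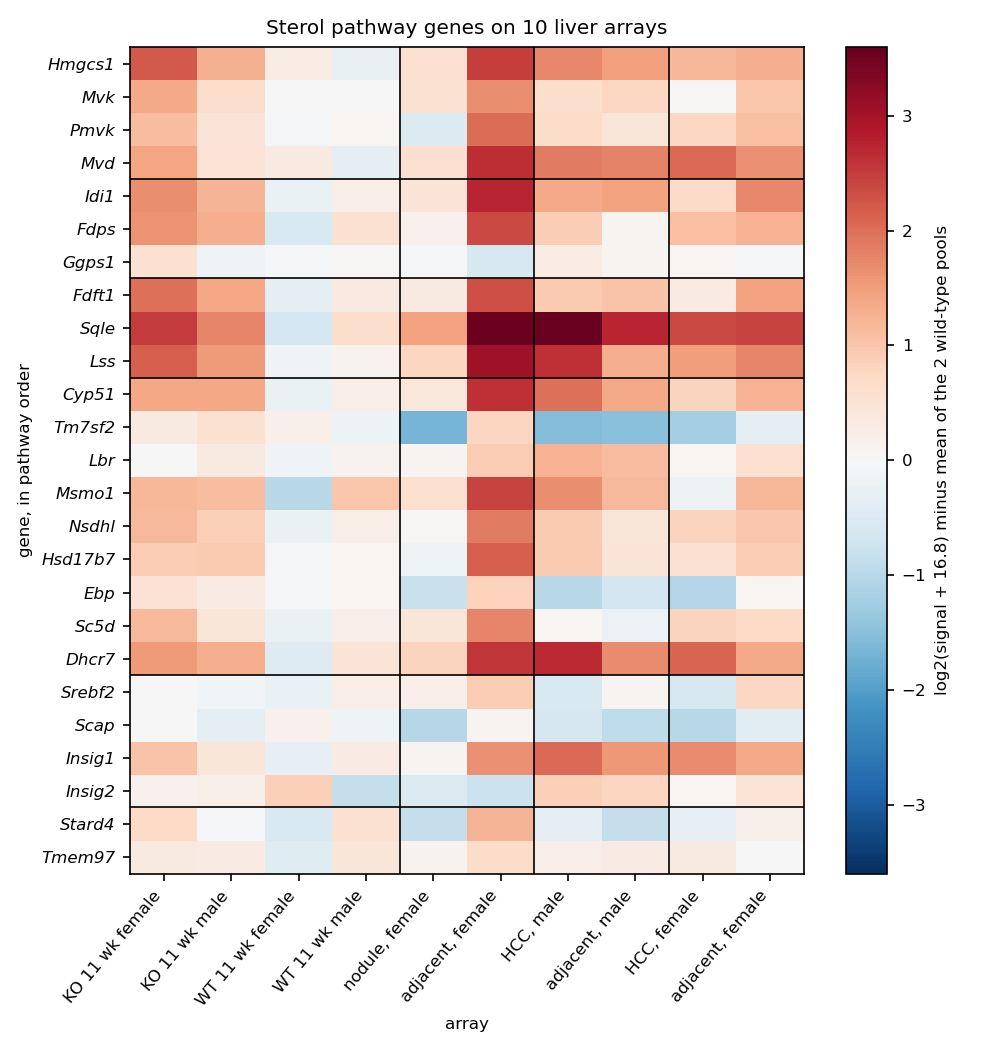
Each cell gives log2(signal + 16.8) minus the mean of the 2 wild-type pools, with 25 genes down the page in pathway order and the 10 arrays across, from the young knockout and wild-type pools to each lesion beside its adjacent liver. Red is above and blue below wild-type, and the column of the liver adjacent to the nodules is the highest array for 18 genes.

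**Figure D3:**
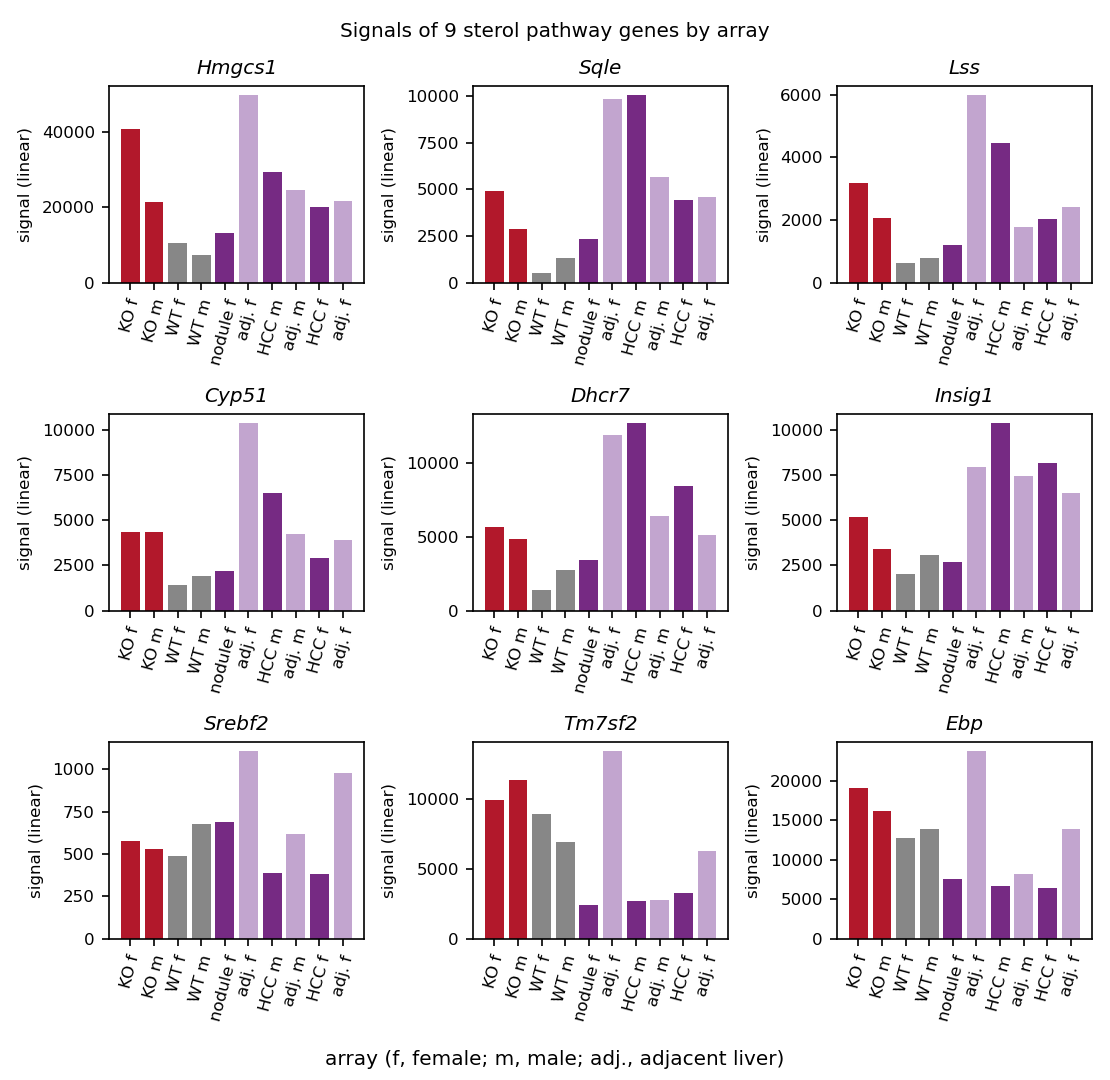
Linear signals of 9 sterol pathway genes on each of the 10 arrays, 1 bar per array (f, female and m, male), with young knockout pools in red, young wild-type pools in grey, lesions in dark purple and adjacent liver in light purple. Hmgcs1, Sqle, Lss and Cyp51 are higher in both knockout than in both wild-type pools, Srebf2 is not, and Tm7sf2 and Ebp are lower in all 3 lesions and in the liver adjacent to the male HCC than in any young pool.

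The nodules were set against the adjacent liver of the same mouse, with 1 array a side and therefore no test. Nearly the whole pathway was lower in the nodules: 23 of 25 members were below the adjacent liver, 20 of them at least 2-fold, and 0 were at least 2-fold higher. Of all genes, 3.86% were at least 2-fold lower and 7.81% at least 2-fold higher. The median difference of the members was -1.87, and that of all genes 0.025. In the mevalonate steps, Hmgcs1 had 13101 in the nodule, against 49593 in adjacent liver, and Pmvk, with the largest difference of the list (-2.50), had 627 in the nodule, against 3634 in adjacent liver. Idi1 had 3962 in the nodule, against 19469.7 in adjacent liver, and Fdps had 3777 in the nodule, against 17728 in adjacent liver. Both isoprenoid enzymes differed by more than 2 log2 units, by -2.29 and -2.23.

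The later steps showed the same. Fdft1 had 3338 in the nodule, against 13509 in adjacent liver, Sqle had 2335 in the nodule, against 9852 in adjacent liver, and Lss had 1210.1 in the nodule, against 5983 in adjacent liver. Their differences were -2.01, -2.07 and -2.29. Among the enzymes that turn lanosterol into cholesterol, Cyp51 had 2174 in the nodule, against 10374 in adjacent liver, and Tm7sf2 had 2431 in the nodule, against 13381 in adjacent liver. Msmo1, Nsdhl, Hsd17b7, Ebp, Sc5d and Dhcr7 had differences of -2.29 to -1.33, and that of Lbr was smaller (-0.82). Of the control genes, Srebf2 (-0.67) and Scap (-1.13) were lower too, and Insig1 had 2714 in the nodule, against 7961 in adjacent liver. Stard4 had 1328 in the nodule, against 5700.0 in adjacent liver, and Tmem97 differed by -0.53. The 2 members above 0 were Ggps1 (0.52) and Insig2 (0.26).

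The liver next to the nodules was the array that stood out. For Hmgcs1 the nodule signal of 13101 lay between the young knockout signals (40576 and 21402) and the young wild-type signals (10460.0 and 7343), while the adjacent liver exceeded all of them. The median of log2(signal + 16.8) over the members was 11.3 in the nodules and 13.0 in the adjacent liver. It was 11.6 to 12.3 in the other 4 aged arrays. Hepatocyte marker sums were 476918 in the nodules and 628573 in the adjacent liver. Other lists differed too, with sums of 11857 in the nodules and 7919.8 in adjacent liver for 6 macrophage markers, 4734 and 3391 for 6 endothelial markers, 7753 and 4155 for 13 cell-cycle genes, and 803 and 1635 for 4 B and plasma cell markers. The clock gene Dbp had 2505 in the nodules, against 7798 in adjacent liver. The part of these differences in the sterol values was not tested.

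In HCC the 2 tumours showed no common direction over the pathway. No member was called over the 2 pairs of HCC and adjacent liver, and 0.0816% of all genes were. By the chosen probe sets, the male tumour had 18 of 25 members above its adjacent liver, with a median of 0.26. The female tumour had 19 below, with a median of -0.36. Dhcr7 had 12682 in the male HCC, against 6427 in its adjacent liver, and 8409.6 in the female HCC, against 5102 in its adjacent liver. It was higher in both tumours, by 0.85 ± 0.27 on the log2 scale (n = 2 pairs), which did not pass (limma adjusted p = 0.430). Srebf2 had 388 in the male HCC, against 621 in its adjacent liver, and 383 in the female HCC, against 979 in its adjacent liver. By its chosen probe set Srebf2 was lower in both, with a difference of -0.99 ± 0.31 (adjusted p = 0.430). Its other probe set differed by 0.28 in the male and -0.41 in the female mouse. Ebp had 6684 in the male HCC, against 8148 in its adjacent liver, and 6389 in the female HCC, against 13829.6 in its adjacent liver, a difference of -0.70 ± 0.30 (adjusted p = 0.631). These 3 were the members with an unadjusted p below 0.05, and 844 of all 11032 genes had one.

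Several enzymes differed in opposite directions in the 2 mice. Lss had 4451 in the male HCC, against 1779.8 in its adjacent liver, and 2023 in the female HCC, against 2427 in its adjacent liver. Sqle had 10053 in the male HCC, against 5649 in its adjacent liver, and 4436 in the female HCC, against 4571 in its adjacent liver. Both were thus well above adjacent liver in the male tumour and slightly below it in the female tumour. Msmo1 had the widest gap between the mice, with 11303 in the male HCC, against 7812 in its adjacent liver, and 3053 in the female HCC, against 8017 in its adjacent liver. Fdft1 (-0.081 in the male and -1.17 in the female mouse), Idi1 (-0.11 and -1.04) and Mvk (-0.12 and -0.94) were near 0 in the male and lower in the female tumour. The other Mvk probe set differed by 0.63 in the male and -1.56 in the female mouse. Insig1 was above adjacent liver in both, with 10353 in the male HCC, against 7442 in its adjacent liver, and 8176 in the female HCC, against 6479 in its adjacent liver, and did not pass (adjusted p = 0.820). The other members, Hmgcs1, Pmvk, Mvd, Fdps, Ggps1, Cyp51, Tm7sf2, Lbr, Nsdhl, Hsd17b7, Sc5d, Scap, Insig2, Stard4 and Tmem97, had mean differences of -0.49 to 0.29.

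When all 3 lesions were set against adjacent liver, 24 of 25 members had a difference below 0, with a median of -0.55, but none was called. A single gene of 11032 was called in this comparison, 0.00906%, while 1096 genes had an unadjusted p below 0.05 (limma). The 6 members with an unadjusted p below 0.05 were all below 0: Tm7sf2 (-1.15 ± 0.43), Idi1 (-1.15 ± 0.39), Fdft1 (-1.09 ± 0.35), Ebp (-1.02 ± 0.28), Srebf2 (-0.88 ± 0.22) and Mvk (-0.73 ± 0.25; n = 3 pairs, limma adjusted p = 0.321 for Srebf2 to 0.446 for Tm7sf2). Each of these 6 was lower in all 3 lesions by its chosen probe set. In the male HCC the differences were small except for Srebf2. There another probe set was above 0 for Srebf2 (0.28) and for Mvk (0.63). The median rested on the nodule pair, without which it was 0.071. Without the male pair, the fit over the 2 female mice, with 1 residual degree of freedom, called 5 members lower, Msmo1 (-1.63, adjusted p = 0.0134), Fdft1 (-1.59, 0.0224), Ebp (-1.38, 0.0314), Idi1 (-1.67, 0.0342) and Tm7sf2 (-1.70, 0.0452), and 0 higher. In that fit 0.499% of all genes were called lower.

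**Figure D4:**
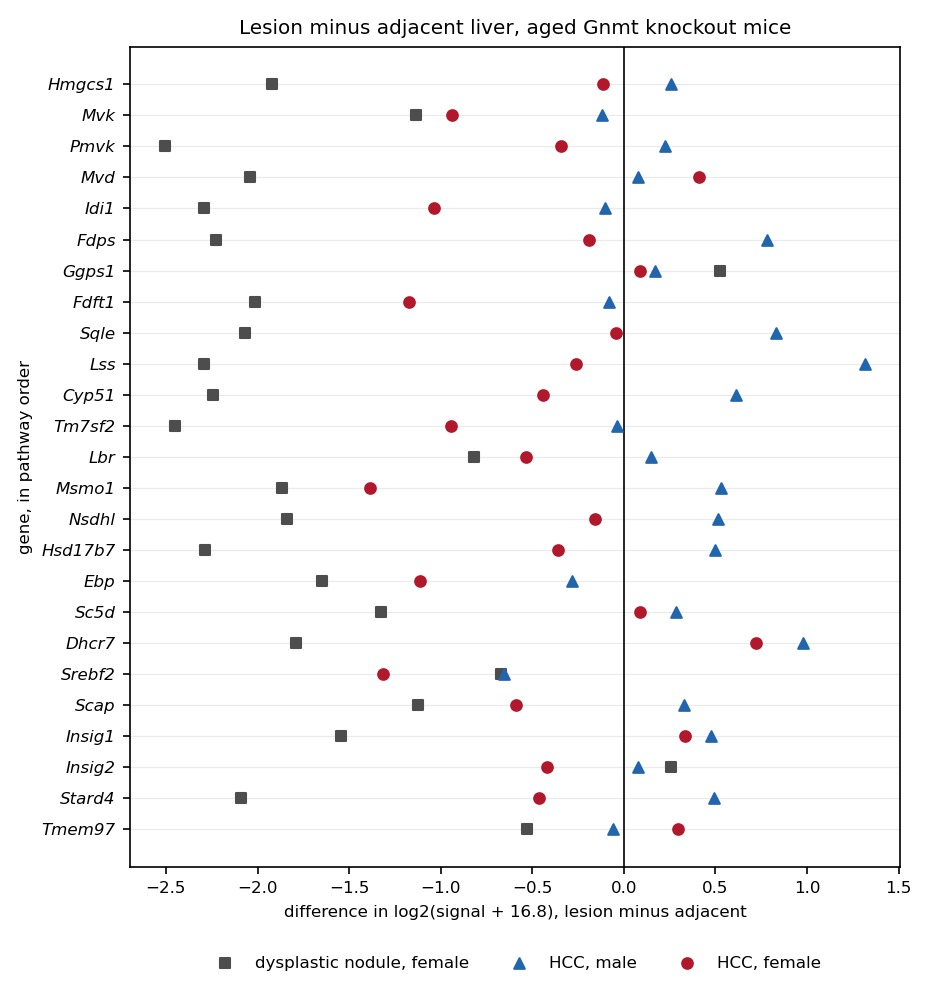
Difference in log2(signal + 16.8) between lesion and adjacent liver of the same aged Gnmt knockout mouse, for 25 sterol pathway genes in pathway order, with squares for the nodules, triangles for the male HCC and circles for the female HCC (1 array a side). The squares lie below 0 for 23 genes with a median of -1.87, and the triangles and circles lie on both sides of 0, with medians of 0.26 and -0.36.

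The 3 adjacent livers were also compared with the 2 young knockout pools. These pools also serve in the comparison with wild-type, and the adjacent livers in those of the lesions. No member was called, nor was any other gene (0% of 11032), while 1355 genes had an unadjusted p below 0.05. The median of the members was 0.056. The 3 members with an unadjusted p below 0.05 were higher in the aged livers. Mvd had 2005, 1103 and 988 in the livers adjacent to the nodules, the male HCC and the female HCC, against 854 and 439.5 in the female and male young pools. Lbr had 1454, 1661 and 1168 in these adjacent livers, against 747 and 960.3 in the young pools. Insig1 had 7961, 7442 and 6479 in the adjacent livers, against 5159 and 3402 in the young pools. None of the 3 overlapped between the groups, and the sex-adjusted differences were 0.96, 0.79 and 0.75 (adjusted p = 0.393, 0.386 and 0.391). Srebf2 did not overlap either, with a difference of 0.57 (limma adjusted p = 0.429). The share of all genes without overlap between these groups was not counted. Tm7sf2 had the lowest difference, -0.94 ± 0.50. Without the liver adjacent to the nodules the median of the members was -0.15. The ratio of the hybridisation controls BioC to BioB was 1.45 to 1.70 in the adjacent livers and 3.90 to 4.65 in the young knockout pools, so age, lesion-bearing liver, single mice against pools, and the hybridisation cannot be told apart.

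Other probe sets of the members gave a check within the arrays. Of 30 further probe sets, 24 in 13 members were above the filter and 6 were below it. Of the 24, 23 had the sign of the chosen probe set in the young knockout comparison and all 24 had it in the nodules. The exception was a Stard4 probe set with a mean difference of -0.12, where the chosen one had 0.34. In HCC the signs matched less often. In the male HCC the other Cyp51 probe sets had -0.041 and -0.21, where the chosen one had 0.61. Those of Lss kept the sign of the chosen one (1.31), with 0.84 and 1.05.

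Neighbouring parts of lipid metabolism were read from further lists. Of 17 other genes of the pathway and its processing, which supply acetyl units, process SREBP or use isoprenoids, 0 were called in knockout liver, with a median of 0.28. Acss2, the cytosolic acetyl-CoA synthetase and an SREBP target, had 23771 and 9459 in the female and male knockout pools, against 3365 and 5207 in the female and male wild-type pools, a difference of 1.84 ± 0.41 (adjusted p = 0.0847). Of 15 genes of sterol uptake, trafficking and esters 0 were called, with a median of -0.15. Of 13 genes of sterol disposal and oxysterol response 2 were called, both lower, with a median of -0.36. Cyp8b1, the hydroxylase that makes cholic acid, had 4750.1 and 7328 in the female and male knockout pools, against 15034 and 17181 in the female and male wild-type pools, and fell by 1.44 ± 0.20 (adjusted p = 0.0347). Cyp39a1, an oxysterol hydroxylase whose gene lies on the same chromosome as Gnmt, had 335 and 67.4 in the female and male knockout pools, against 1993 and 709 in the female and male wild-type pools, and fell by 2.81 ± 0.27 (adjusted p = 0.0139). In the male pools alone, a setting chosen after seeing the data, the differences were -1.23 for Cyp8b1 and -3.11 for Cyp39a1.

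The fatty acid side of SREBP control had its own values. Of 12 genes of fatty acid synthesis that SREBP1 is known to drive, 0 were called in young knockout liver, with 11 above 0 and a median of 0.70. In HCC all 12 were above 0, with a median of 0.82, where the sterol members had 0.071, and 1 was called: Pnpla3, a lipid droplet protein, rose by 3.43 ± 0.41 (adjusted p = 0.0345), with 852 and 2154 in the male and female tumours, against 124 and 98.6 in adjacent liver. Fasn, the fatty acid synthase, had 11941 and 29874 in those tumours, against 7389 and 6742, and did not pass (adjusted p = 0.262). The difference between the sterol and fatty acid lists was not tested. Of 11 cell-cycle genes, Cdc20, an activator of the anaphase ubiquitin ligase, rose in young knockout liver by 1.89 ± 0.32 (adjusted p = 0.0464), and of 12 clock genes 0 were called. Between females and males, Cyp7b1, an oxysterol hydroxylase, fell by 2.72 ± 0.24 (adjusted p = 0.00649), the single call among these lists. Its difference was -3.09 in knockout and -2.34 in wild-type liver.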

How the data were processed

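Per the labels' protocols, labelled RNA was made from 5 ug of total RNA, and the submitters' processing notes name GCOS, with its version and settings not given in the sources used here. The deposited unit is intensity, a linear signal for each probe set, and the trimmed mean (2% off each end) was 500 on all arrays. No detection calls were used, and precision is limited by how few arrays there are.

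The log2 scale was used with 16.8 added to each signal, which is the 20th percentile. Probe sets that name a single gene were used, and a gene was kept where its mean exceeded the median of all values, 91. Differences were fitted with limma 3.58.1 in R 4.3.3 with an intensity trend and Benjamini-Hochberg adjustment over 11032 genes. Sex was a term between genotypes and ages, genotype between sexes, and the mouse for lesions. The fits left 1 residual degree of freedom for genotype, sex and HCC, and 2 for the others. In tests on simulated data the sizes of changes were recovered, and false calls exceeded the set rate with 1 residual degree of freedom. All listed members are named, and other genes if called in a list, with Acss2, Fasn and the clock genes named after their values were seen. The members and lists were chosen with earlier results of these data known. The alternatives covered the added constant, normalization, filter, probe sets, variance trend, model and each array left out.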

Additional observations from a re-analysis of the deposited data

Results flagged for a closer look

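The results here were flagged because the differences in one group of arrays went one way and those in the other the opposite way. The share of all genes with such opposite signs was not counted. None of these differences was tested, and each rests on 1 or 2 pairs of arrays.

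The knockout minus wild-type difference had opposite signs in the sexes for 5 members, none of them an enzyme on the direct route from mevalonate to cholesterol. The female difference minus the male difference, in log2 units, was Ggps1 (0.74), Srebf2 (0.57), Insig2 (-1.76), Stard4 (1.86) and Tmem97 (0.88). For Insig2 the difference was above 0 in males, and for the other members named it was above 0 in females.

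HCC minus adjacent liver had opposite signs in the male and the female mouse for 14 members. The male difference minus the female difference was Hmgcs1 (0.37), Pmvk (0.57), Fdps (0.97), Sqle (0.87), Lss (1.57), Cyp51 (1.05), Lbr (0.68), Msmo1 (1.92), Nsdhl (0.67), Hsd17b7 (0.86), Scap (0.92), Insig2 (0.49), Stard4 (0.96) and Tmem97 (-0.35). Only for Tmem97 among these 14 was the female tumour the one above its adjacent liver. For some of these members the signs depended on the probe set. The other Hmgcs1 probe sets had -0.40, -0.060, -0.15 and 0.19 in the male mouse. In the same order they had -0.49, -0.37, -1.16 and 0.65 in the female mouse. The other Cyp51 probe sets had -0.041 and -0.21 in the male mouse, and -0.15 and 0.38 in the female mouse. An Insig2 probe set had -0.019 in the male and -0.15 in the female mouse. The other probe sets of Lss, Hsd17b7 and Stard4 above the filter kept the opposite signs.

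The nodules were below adjacent liver while both HCC were above it for 4 members. The nodule difference minus the mean HCC difference was Mvd (-2.29), Sc5d (-1.51), Dhcr7 (-2.64) and Insig1 (-1.95). For Sc5d this held for the chosen probe set only, with 0.28 in the male and 0.088 in the female HCC. Its other probe sets were below adjacent liver in both HCC, by -0.61 and -0.69 in the male and -0.41 and -0.27 in the female.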

How the results depend on the processing

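In knockout against wild-type liver, 3 members were called as reported, 5 with an added constant of 8.4, 12 after quantile normalization, 9 after centring on the 75th percentile and 9 with every probe set on its own. None (0) was called without the intensity trend, with the mean over all probe sets, with all arrays in 1 model, without sex as a term, or with any 1 pool left out (0 to 0, in the model of all arrays). The counts of all genes called were 160 as reported, 603 after quantile normalization, 328 after centring, 38 with the mean of probe sets, 2 without sex as a term, and 1 without the trend and with all arrays in 1 model. With every probe set on its own, 616 probe sets were called, a count of probe sets and not of genes. The median of the members stayed between 0.61 and 1.17 with each pool left out, and was 0.66 in the male pools alone, an alternative chosen after seeing the data, as were the counts without a wild-type pool (19 without the female pool and 22 without the male pool, against 18). These count members with both knockout pools above. The share of all genes was 33.7% without the female pool and 22.0% with both wild-type pools. It was not counted without the male pool. Srebf2, -0.055 as reported, was 0.061 after quantile normalization and 0.097 after centring, Scap was 0.0016 after centring, and Hsd17b7, 0.92 as reported, was -0.0080 with the mean of probe sets. With each pool left out, the differences were -0.19 to 0.61 for Ggps1, -0.52 to 1.20 for Stard4, -0.093 to 0.72 for Tmem97, -0.054 to 0.37 for Lbr, -0.41 to 0.30 for Srebf2 and -0.86 to 1.22 for Insig2. Hmgcs1 in females against males, 0.72 as reported, was 0.18 with all arrays in 1 model and, in that model with each pool left out, -0.070 to 0.067.

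For all lesions, 0 to 5 members were called with a pair left out, 5 without the male HCC pair, where 177 genes were called in all. The nodule median was -1.997 after centring. In females against males, HCC, and aged against young knockout liver, no member was called under any alternative, while the aged comparison called 441 genes without the young female knockout pool, 110 without the liver adjacent to the nodules and 9 without that adjacent to the female HCC. In the aged comparison, centring moved the median of all genes to -0.10, against 0.081 as reported, and the median of the members to -0.13, against 0.056, while relative to all genes the members stood at -0.032 after centring and -0.025 as reported. The cause of these changes was not tested. No paired analysis by replicate number was possible because the labels give none.

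With 2 or 3 arrays a group, small differences could not be separated from the spread.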
